A study of Mus musculus with 22 samples.

Results

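Nr1d1 and Nr1d2 encode the REV-ERB receptors REV-ERBα and REV-ERBβ, and their transcripts were followed in regulatory T cells (Tregs) of mouse visceral fat. The pair was taken by name and makes up 2 of the 55011 gene symbols in the count table. REV-ERBs are nuclear receptors that bind heme and lack the activation helix of most other nuclear receptors, so they act as repressors by recruiting the NCOR1-HDAC3 corepressor complex. The activator BMAL1, encoded by Arntl, pairs with CLOCK or NPAS2 and drives Nr1d1 and Nr1d2 through E-box elements. The REV-ERB proteins in turn repress Arntl, Npas2, Cry1 and Nfil3, in competition with the ROR receptors for the same elements, and this loop stabilises the circadian clock. In T cells, REV-ERBs are known for their place among the regulators of the Il17 program.

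The data are 22 RNA-seq libraries in 8 groups, each made from 1000 Foxp3-YFP+ cells sorted in 2 rounds from the visceral fat of male C57BL/6 Foxp3.Cre-YFP mice. Cells were collected at ZT0, the time of lights on, and the labels call their Bmal1 genotype WT or KO. Mice on a lean diet (LFD) were 18 weeks old, mice given high fat diet (HFD) for 4 weeks were 18 weeks old and mice given it for 16 weeks were 30 weeks old, the HFD following 14 weeks of lean diet, with 3 WT and 3 KO libraries on each. In the adoptive transfer groups, with 2 WT and 2 KO libraries, cells were recovered 9 weeks after transfer from mice aged 20 weeks. All groups carry the Foxp3.Cre-YFP allele, so Cre is tied to Foxp3-expressing cells in WT and KO alike. The labels name neither the deleted part of Arntl nor the host of the transferred cells, and do not say whether libraries of a group came from separate animals, so p-values measure the spread between these libraries, which may be technical. A single circadian time was sampled, so a level here is a level at ZT0 and not a rhythm.

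Total counts per library ran from 1955940 to 3467019 in the diet groups and from 4814337 to 5990319 after transfer, and 0 counts of a gene allow a level of up to 3 counts, or 0.554 to 1.56 CPM (counts on the scale of a common library total, after scaling by TMM over all 22 libraries). Such limits and all count intervals given here cover counting error only. The 7 genes of the Treg marker list summed to 4352 to 6863 CPM and Foxp3 was at 396 to 706 CPM in every library. In the cytotoxic T and NK list Cd8a did not exceed 0.385 CPM, while Cd8b1 was at 8.28 to 37.4 CPM. Prf1 and Gzma reached up to 40.4 and 16.75 CPM, and Klrb1c and Ncr1 up to 3.85 and 1.79 CPM. Summed markers of B cells stayed within 3.88 to 29.4 CPM those of macrophages within 3.67 to 16.6 CPM and those of adipocytes at or under 3.13 CPM. Markers of cytotoxic T and NK cells summed to 10.8 to 66.0 CPM, those of mesothelium to 28.9 to 186 CPM and those of endothelium to 38.3 to 192 CPM. In the mesothelial list Lrrn4 was at 28.9 to 186 CPM, while Upk3b and Msln did not exceed 0.855 CPM and Krt19 was at 0. In the endothelial list Pecam1 was at 36.9 to 159 CPM, while Cldn5, Kdr and Cdh5 did not exceed 37.3, 13.4 and 2.63 CPM. Both sums thus rest largely on single genes and do not establish that such cells were present. The endothelial sum moved with the groups, from 38.3 to 55.0 CPM after transfer to 114 to 192 CPM in KO cells after 16 weeks of HFD, where WT cells had 49.5 to 162 CPM. Library 1 of the KO group after 16 weeks of HFD stood apart with 114 CPM of stromal markers, against at most 11.1 CPM elsewhere. Arntl itself averaged 68.3 ± 4.75 CPM (SD, n = 3) in lean WT and 83.2 ± 15.9 CPM (SD, n = 3) in lean KO cells. Since its counts cover the whole gene and the deleted part is not named, this level checks neither label.

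Nr1d1 (ENSMUSG00000020889.11) lies on the minus strand of mouse chromosome 11 at chr11:98767932-98775333 (GRCm38, the assembly also called mm10) and spans 7402 bases with 3.08 kb of merged exons. Its 3′ end overlaps Thra, the thyroid hormone receptor alpha gene, which runs along the plus strand at chr11:98740638-98769006, and 263 exonic bases are shared. Nr1d2 (ENSMUSG00000021775.11) lies on the minus strand of chromosome 14 at chr14:18204054-18239127 and spans 35074 bases with 5.41 kb of merged exons, with no annotated gene overlapping it. Thrb, encoding thyroid hormone receptor beta, is its neighbour at a distance of 166.0 kb, so each REV-ERB gene adjoins a thyroid hormone receptor gene.

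The windows from 250 bases before to 50 bases after each RefSeq start (GRCm38.p6, both genes matched) are shown because both genes were lower in every KO library and BMAL1 is known to act on both through E-boxes. They lie at chr11:98775328-98775627 for Nr1d1 and chr14:18239057-18239356 for Nr1d2 and are written 5′ to 3′ along the minus strand, in the direction of transcription. Capitals mark the matches to the 4 motifs searched on both strands, namely the E-box CACGTG, the E′-box CACGTT, the REV-ERB and ROR half-site AGGTCA and the D-box TTANGTAA. No match overlaps another.
Nr1d1: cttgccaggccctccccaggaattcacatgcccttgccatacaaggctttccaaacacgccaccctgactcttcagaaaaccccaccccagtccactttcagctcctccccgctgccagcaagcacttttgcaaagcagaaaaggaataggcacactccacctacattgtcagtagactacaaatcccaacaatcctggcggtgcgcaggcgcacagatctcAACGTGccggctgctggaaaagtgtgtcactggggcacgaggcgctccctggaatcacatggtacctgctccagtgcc
Nr1d2: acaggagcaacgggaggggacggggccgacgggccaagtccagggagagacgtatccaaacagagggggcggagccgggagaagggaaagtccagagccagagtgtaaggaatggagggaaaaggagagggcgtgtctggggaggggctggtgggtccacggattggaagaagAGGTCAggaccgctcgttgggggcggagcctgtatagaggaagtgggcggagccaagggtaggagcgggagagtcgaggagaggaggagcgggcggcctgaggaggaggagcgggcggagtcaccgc
The Nr1d1 window held 1 E′-box, read on the opposite strand and starting 28 bases before the start, and this motif occurs in 4.7% of the 32851 promoter windows of the same length. The Nr1d2 window held 1 half-site AGGTCA, starting 77 bases before the start, a motif found in 16.3% of windows. Neither window held the E-box CACGTG (7.2% of windows) or the D-box (2.3%). A match is a run of letters and not a measured binding site, and these short windows leave out elements farther away. The Nr1d2 window was richer in G and C (65.7%, with 20 CpG dinucleotides) than that of Nr1d1 (56.3%, with 9).

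Both REV-ERB transcripts were nearly lost in Bmal1 KO Tregs, on each diet and after transfer. The lowest of the 11 WT libraries had 3.52 times the Nr1d1 level and 7.49 times the Nr1d2 level of the highest of the 11 KO libraries. Averaged over the 3 diets, Nr1d1 was 13.6-fold and Nr1d2 20.4-fold lower in KO cells, and after transfer the folds were 78.4 and 13.3. In whole sorted populations, fewer cells with the transcript and less transcript per cell cannot be told apart.

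In lean WT cells Nr1d1, encoding REV-ERBα, stood at 44.0, 25.8 and 38.7 CPM in the 3 libraries, from 96, 62 and 83 counts. In lean KO cells it stood at 4.40, 1.04 and 0.901 CPM, from 12, 2 and 2 counts. The groups did not overlap, and library 1 of the KO group was several times higher than the others. The fold was 15.7 (log2 fold change -3.98 ± 0.49 SE, edgeR adjusted p = 0.000354), in a comparison in which 0.0427% of the 11698 genes tested were called at an adjusted p under 0.05 in either direction. Nr1d2, encoding REV-ERBβ, stood at 50.0, 42.8 and 49.0 CPM in lean WT cells and at 2.57, 1.56 and 0 CPM in lean KO cells. The third KO library had 0 counts of Nr1d2, which allows up to 1.35 CPM. The WT libraries lay close together and far above the KO libraries, with a fold of 32.0 (log2 -5.00 ± 0.49, edgeR adjusted p = 2.32e-05).

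After 4 weeks of HFD, Nr1d1 was at 25.0, 32.7 and 23.6 CPM in WT and at 1.10, 4.17 and 2.87 CPM in KO libraries. Nr1d2 was at 37.8, 33.1 and 23.1 CPM in WT and at 0.733, 2.57 and 2.15 CPM in KO libraries. For each gene the groups were again separate, and KO library 1 was the lowest of its group for both. Nr1d1 fell by 3.28 ± 0.46 on the log2 scale (edgeR adjusted p = 0.0028) and Nr1d2 fell by 4.06 ± 0.46 (edgeR adjusted p = 0.000227), where 0.0684% of all genes were called.

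After 16 weeks of HFD, Nr1d1 was at 20.2, 30.6 and 15.5 CPM in WT and at 2.11, 1.13 and 0.639 CPM in KO libraries. Nr1d2 was at 27.6, 35.9 and 35.0 CPM in WT and at 2.46, 3.00 and 0.639 CPM in KO libraries. There was no overlap in either gene, and the lowest WT value of all 11 libraries for Nr1d1 was in this group. Nr1d1 fell by 4.05 ± 0.52 (edgeR adjusted p = 0.000478) and Nr1d2 fell by 4.00 ± 0.45 (edgeR adjusted p = 9.4e-05), where 0.0427% of all genes were called. No difference of the KO effect between diets passed the test of the interaction, with log2 differences from the lean diet of 0.70 ± 0.71 and -0.07 ± 0.61 for Nr1d1 and 0.94 ± 0.76 and 1.00 ± 0.75 for Nr1d2 after 4 and 16 weeks of HFD (edgeR adjusted p from 0.743 to 1.0). Of all genes, 0% were called for either interaction by edgeR, with 534 and 993 at an unadjusted p under 0.05 and 0 and 24 called by DESeq2. The 95% intervals of these differences reached from -1.34 to 2.17 for Nr1d1 and from -0.63 to 2.55 for Nr1d2. The end at -1.34 belongs to the difference of -0.07, and the SE used here is unstable for differences so near 0. With intervals this wide, a change of several fold in the KO effect was not detectable at these counts. Over the 3 diets together the log2 fold change was -3.77 ± 0.28 for Nr1d1 (edgeR adjusted p = 8.13e-08) and -4.35 ± 0.27 for Nr1d2 (edgeR adjusted p = 6.12e-09), with 0.18% of all genes called in either direction and 0.094% called lower.

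In transferred WT Tregs, Nr1d1 was at 73.1 and 107.5 CPM, from 323 and 582 counts, the highest values of the 22 libraries. In transferred KO Tregs it was at 1.55 and 0.77 CPM, from 7 and 4 counts. Nr1d1 fell by 6.29 ± 0.41 on the log2 scale after transfer (78.4-fold, edgeR adjusted p = 0.000233). Nr1d2 was at 26.5 and 31.8 CPM in transferred WT and at 3.09 and 1.35 CPM in transferred KO cells, a log2 change of -3.73 ± 0.51 (13.3-fold, edgeR adjusted p = 0.0267), in a fit in which 0.171% of 11715 genes were called. This call for Nr1d2 rests on every library but KO library 1: the adjusted p was 0.0864 without WT library 1, 0.142 without WT library 2 and 0.0711 without KO library 2, with log2 fold changes of -3.85, -3.58 and -3.23. The call for Nr1d1 held without each library in turn.

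**Figure D1:**
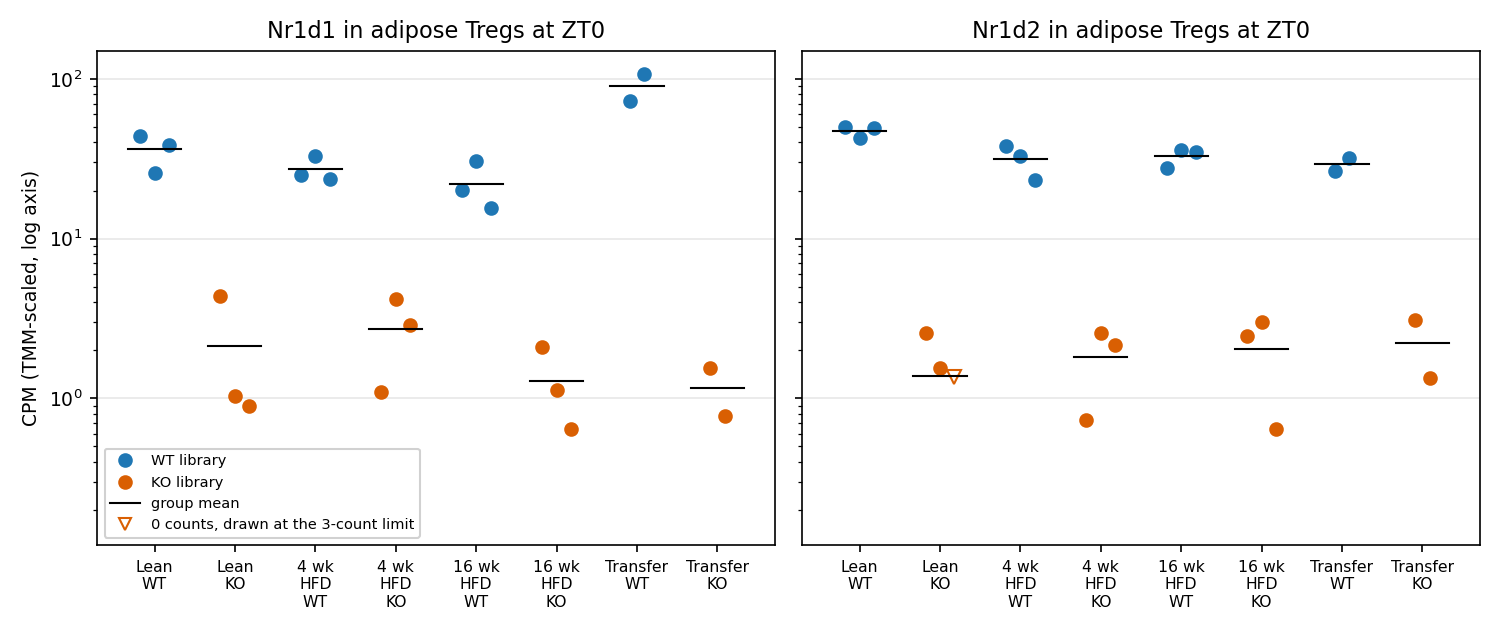
Level of Nr1d1 (left) and Nr1d2 (right) in each library, as TMM-scaled CPM on a log axis, by diet or transfer and genotype, with the group mean as a bar and a library at 0 counts drawn open at its 3-count limit. All WT libraries lie above all KO libraries, and for Nr1d1 the transferred WT libraries, at 73.1 and 107.5 CPM, lie above the other WT libraries.

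The transcript remaining in KO cells was a small share of the WT level, taken from the summed counts of each group with exact 95% intervals. For Nr1d1 it was 6.5% (3.65 to 10.8) on the lean diet, 10.2% (6.37 to 15.6) after 4 weeks of HFD, 5.73% (2.82 to 10.4) after 16 weeks and 1.23% (0.611 to 2.21) after transfer. For Nr1d2 the remainder was 3.09% (1.47 to 5.75), 5.79% (3.26 to 9.61), 6.03% (3.47 to 9.81) and 7.35% (4.48 to 11.4) in the same order. Nr1d1 thus left its smallest remainder after transfer, where that of Nr1d2 was its largest, though the intervals for Nr1d2 overlap across all 4 conditions. Lean KO library 1, with the highest remaining Nr1d1, also had the highest summed B cell markers of its group, at 19.8 CPM against 6.74 and 6.3 CPM, and the highest endothelial markers, at 74.7 CPM against 38.4 and 53.1 CPM. In the KO group after 4 weeks of HFD the order was the other way: library 2 had the most Nr1d1, at 4.17 CPM, and the lowest B cell markers, at 15.7 CPM against 25.7 and 22.2 CPM, and endothelial markers, at 81.5 CPM against 110.7 and 112.8 CPM. After 16 weeks of HFD the KO library with the most Nr1d1, at 2.11 CPM, held the stromal markers of 114 CPM and the highest endothelial markers, at 192 CPM. The part of such cells in the remaining transcript was not tested.

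Diet changed neither gene past the threshold in WT Tregs. Group means of Nr1d1 ran from 36.2 ± 9.41 CPM (SD, n = 3) on the lean diet to 27.1 ± 4.91 after 4 weeks and 22.1 ± 7.75 after 16 weeks of HFD, and the libraries of neighbouring groups overlapped. The log2 differences from the lean diet were -0.43 ± 0.38 (95% interval -1.21 to 0.35, edgeR adjusted p = 0.961) and -0.72 ± 0.38 (-1.51 to 0.06, edgeR adjusted p = 0.595). Nr1d2 averaged 47.3 ± 3.91 CPM on the lean diet, 31.4 ± 7.51 after 4 weeks and 32.9 ± 4.53 after 16 weeks (SD, n = 3 each). All 3 lean WT libraries, at 42.8 to 50.0 CPM, were above all 6 HFD WT libraries, at 23.1 to 37.8 CPM. How many of all genes separate in this way was not counted. The Nr1d2 differences of -0.60 ± 0.34 (-1.31 to 0.10, edgeR adjusted p = 0.903) and -0.54 ± 0.33 (-1.24 to 0.16, edgeR adjusted p = 0.687) did not pass. Of all genes, 0% were called between 4 weeks of HFD and the lean diet in WT cells, by edgeR or DESeq2, although 654 genes had an unadjusted p under 0.05, and 0.0855% between 16 weeks and the lean diet. Between 16 and 4 weeks of HFD the differences were -0.30 ± 0.38 for Nr1d1 and 0.06 ± 0.34 for Nr1d2 (edgeR adjusted p = 0.927 and 0.989), with 0% of genes called, 884 with an unadjusted p under 0.05 and 24 called by DESeq2. The mice given 16 weeks of HFD were also older, so diet and age cannot be told apart there.

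In KO cells, where few counts remained, the diet groups of both genes overlapped. Nr1d1 differed from the lean diet by 0.27 ± 0.60 after 4 weeks and -0.80 ± 0.67 after 16 weeks of HFD, and Nr1d2 by 0.34 ± 0.67 and 0.46 ± 0.66 (edgeR adjusted p from 0.571 to 0.968). These signs turned when single libraries were left out. Of all genes, 0% were called after 4 weeks, with 836 at an unadjusted p under 0.05 and 22 called by DESeq2, and 5.95% after 16 weeks, a comparison in which neither REV-ERB gene was among the calls. From 4 to 16 weeks of HFD the KO differences were -1.07 ± 0.63 for Nr1d1 and 0.12 ± 0.60 for Nr1d2 (edgeR adjusted p = 0.497 and 0.965), with 1.64% of genes called.

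Transferred WT Tregs had more Nr1d1 than lean resident WT Tregs and not more Nr1d2. The Nr1d1 group mean was 90.3 ± 24.3 CPM (SD, n = 2) after transfer and 36.2 ± 9.41 CPM (SD, n = 3) in lean mice, with no overlap. In the fit of all 22 libraries the log2 difference was 1.26 ± 0.37 (2.4-fold, edgeR adjusted p = 0.0303), in a comparison in which 10.5% of 12523 genes were called in either direction and 4.63% were called higher. The call was lost without lean WT library 2 (1.06, adjusted p = 0.13), lean WT library 3 (1.31, adjusted p = 0.0774) or transferred WT library 2 (0.96, adjusted p = 0.267), and with a replicate block (1.12, adjusted p = 0.0741). Nr1d2 moved the other way, from 47.3 ± 3.91 to 29.1 ± 3.72 CPM, a difference of -0.75 ± 0.38 that did not pass (edgeR adjusted p = 0.23) but did when only the groups compared were fitted (-0.76, edgeR adjusted p = 0.0499). In KO cells the differences were -1.02 ± 0.69 for Nr1d1 and 0.54 ± 0.66 for Nr1d2 (edgeR adjusted p = 0.492 and 0.735), where 3.35% of all genes were called. The interaction of genotype and transfer was -2.28 ± 0.79 for Nr1d1, with an unadjusted p of 0.00846 and an edgeR adjusted p of 0.511, and 1.30 ± 0.77 for Nr1d2 (edgeR adjusted p = 0.77), so a KO effect that differs with transfer is not called for either. Of all genes 0.0319% were called for this interaction.

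Transfer cannot be told apart from experiment, age and depth in these groups, since the transferred libraries had the highest totals and their mice were of another age. Cell state also moved with it: the summed Treg markers were 6185 to 6366 CPM in transferred WT against 4352 to 4586 CPM in lean WT libraries. The summed markers of adipose tissue Tregs, which include Pparg, Il1rl1 and Klrg1, were 9723 to 10130 against 3237 to 6121 CPM. Summed B cell markers were lower, at 3.88 to 6.34 against 9.97 to 16.3 CPM, as were endothelial markers, at 38.3 to 43.8 against 60.6 to 73.8 CPM. The part of these differences in the Nr1d1 level was not tested.

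The balance of the receptors was read within each library as the share of Nr1d1 among the summed counts of the pair, which needs no library scaling. In the 9 WT diet libraries this share lay between 30.7% and 50.5%, and pooled it was 43.1% (exact 95% interval 40.6 to 45.6). In the transferred WT libraries it was 73.4% and 77.2%, pooled 75.8% (73.3 to 78.2), above every WT diet library. In the transferred KO libraries it was 33.3% and 36.4%, pooled 34.4% (18.6 to 53.2). The transferred groups were set side by side after their levels were known and were not tested. Per kilobase of exon, Nr1d1 was 1.34 times Nr1d2 in lean WT cells and 5.5 times in transferred WT cells, from group levels of 11.8 and 8.74 CPM per kb and of 29.4 and 5.39 CPM per kb.

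Among KO diet libraries the share was 54.3% (43.7 to 64.6) from only 94 counts. By diet, the mean log2 ratio of Nr1d1 to Nr1d2 counts was 0.86 in lean KO against -0.42 in lean WT cells. After 4 weeks of HFD it was 0.51 in KO against -0.19 in WT, but after 16 weeks the means lay close, at -0.50 and -0.61. Averaged over the 3 diets, the mean log2 ratio was 0.70 higher in KO than in WT. The exact two-sided permutation p over genotype within diets was 0.0375, which became 0.113 after adjustment over the 3 ratio comparisons made. Leaving out any of 10 of the 18 libraries, namely all 3 lean WT libraries, lean KO libraries 1 and 3, WT library 1 and KO library 2 of 4 weeks of HFD, and WT library 3 and KO libraries 1 and 3 of 16 weeks, gave an exact permutation p of 0.05 to 0.096. The difference was then 0.46 to 0.74, and it was smallest without lean KO library 3, which held 2 Nr1d1 counts and 0 Nr1d2 counts. Between diets in WT cells the ratio differed by 0.22 after 4 weeks and -0.20 after 16 weeks of HFD (exact permutation p = 0.5 and 0.6, each 0.6 after adjustment), where 3 libraries against 3 cannot give a p below 0.1. The latter became 0.08 without library 3 of the WT group after 16 weeks of HFD.

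**Figure D2:**
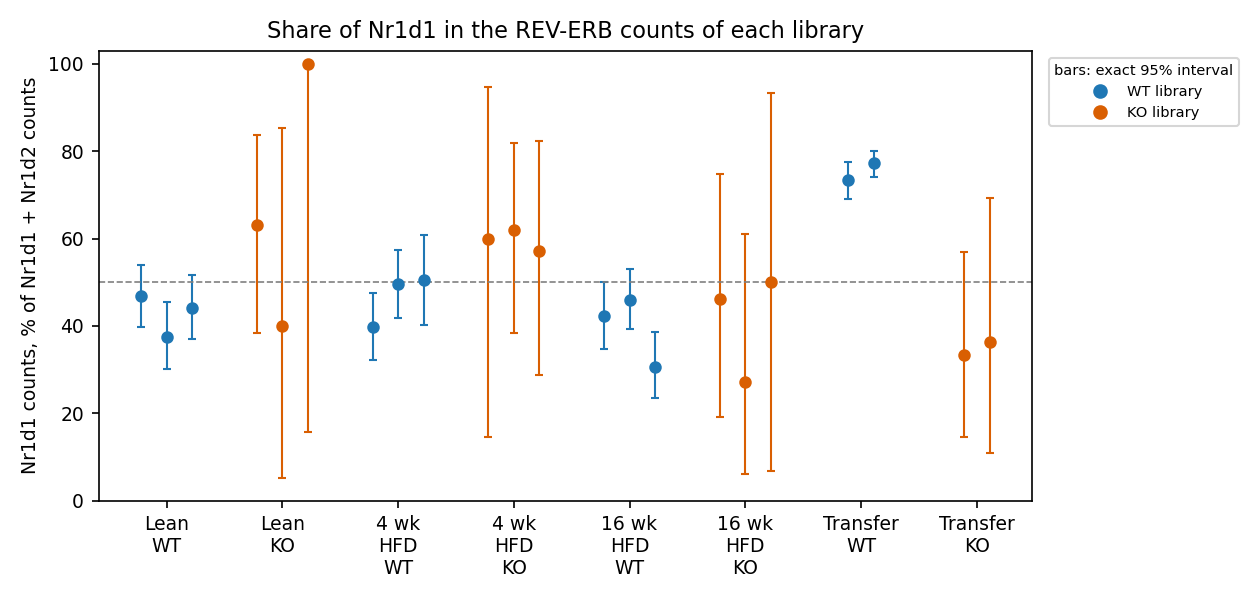
Share of Nr1d1 in the summed Nr1d1 and Nr1d2 counts of each library, in percent, by diet or transfer and genotype, with exact 95% binomial intervals and a dashed line at 50%. The transferred WT libraries sit at 73.4% and 77.2%, above the WT diet libraries at 30.7% to 50.5%, and the intervals of KO libraries are wide because few counts remain.

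Whether the genes vary together within a group was looked at in the 9 WT diet libraries after the mean of each diet was removed. Pearson's r was 0.36 (exact permutation p = 0.324 over pairings within diets) and Spearman's rho 0.40 (exact permutation p = 0.287). Without the 2 libraries farthest from the median, r was 0.34 (exact permutation p = 0.25) and rho 0.39 (exact permutation p = 0.167). A shared variation of Nr1d1 and Nr1d2 between libraries of a group was not detectable with this number.

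**Figure D3:**
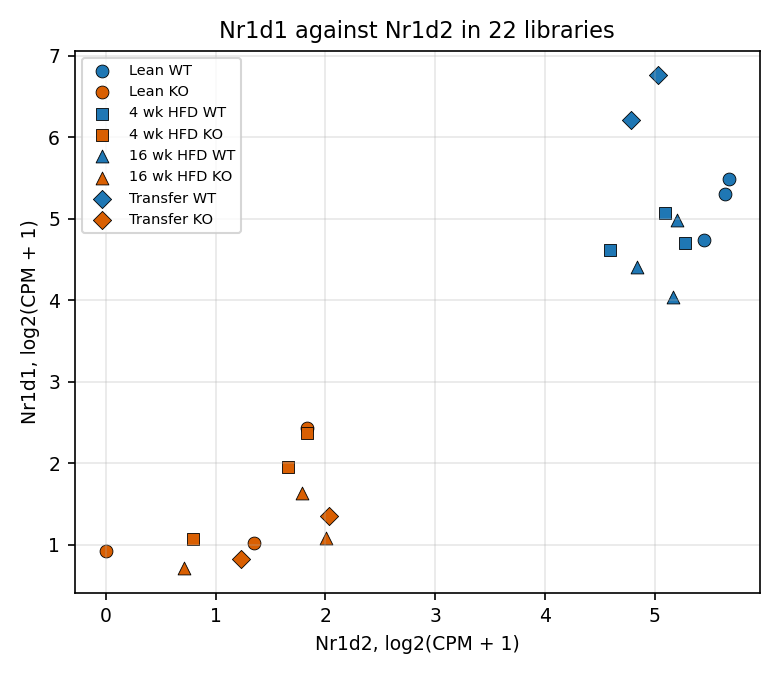
Nr1d1 against Nr1d2 in the 22 libraries, both as log2(CPM + 1), with colour for genotype and symbol for diet or transfer. The KO libraries form a separate low cloud, and among WT libraries the transferred ones are highest for Nr1d1 without being highest for Nr1d2.

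Thra needed a look of its own because it overlaps the 3′ end of Nr1d1 on the other strand and the library kit does not mark strand, so reads in the shared bases cannot be told apart. Its lean levels were 14.7, 12.5 and 8.87 CPM in WT and 5.13, 3.63 and 3.15 CPM in KO libraries, and after transfer 28.5 and 28.8 CPM in WT and 3.31 and 8.47 CPM in KO libraries. The groups did not overlap on the lean diet, after 4 weeks of HFD or after transfer, and overlapped after 16 weeks. The share of all genes whose groups separate in this way was not counted, so for Thra this is a description only. Over the 3 diets the log2 difference was -0.95 ± 0.20 (edgeR adjusted p = 0.0506), and after transfer -2.28 ± 0.48 (edgeR adjusted p = 0.269), so Thra did not pass in either. Calls for Thra changed with the processing: after transfer the adjusted p was 0.00834 when all 22 libraries were fitted together and 0.00829 with DESeq2. Between transferred and lean WT cells Thra rose with Nr1d1, by 1.19 ± 0.36 (edgeR adjusted p = 0.035). How much of the Thra counts comes from reads of Nr1d1 was not tested. The neighbours that share no bases with the REV-ERB genes did not pass over the 3 diets, with log2 differences of -0.37 ± 0.14 for Msl1, 0.09 ± 0.11 for Med24, -0.36 ± 0.43 for Thrb and 0.03 ± 0.07 for Rpl15 (edgeR adjusted p from 0.531 to 0.968).

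Among 49 nuclear receptor genes compared per kilobase of exon over the 11 WT libraries, Nr1d1 was at rank 9 with a mean of 12.9 CPM per kb and Nr1d2 at rank 11 with 6.6 CPM per kb. The highest were Nr4a1 at 887, Nr4a3 at 99.5, Nr1h2 at 41.9, Rora at 33.9 and Nr3c1 at 26.9 CPM per kb, so the activating receptor RORα, which shares elements with the REV-ERBs, had more transcript than either. In the 11 KO libraries Nr1d1 was at rank 21 with 0.61 and Nr1d2 at rank 23 with 0.338 CPM per kb. Of the 47 other receptor genes 22 passed the filter on low counts in the diet libraries and 0 were called between KO and WT over the 3 diets by edgeR, with 2 at an unadjusted p under 0.05, 1 called by DESeq2 (Thra) and a median log2 difference of 0.09 beside 0 over all genes. As edgeR called 0.18% of all genes there and 0.171% after transfer, a count of 0 among so few genes is near the background. An unadjusted edgeR p under 0.05 was found for 865 of all 11698 genes over the diets and 765 of 11715 after transfer. DESeq2 called 38 and 61 of all genes in these comparisons. After transfer 0 of 21 were called by edgeR, with 2 at an unadjusted p under 0.05, 2 called by DESeq2 (Thra and Nr4a2) and a median of -0.04. Of the ROR genes, Rora did not pass with either tool or at an unadjusted p under 0.05 and differed by 0.17 ± 0.14 over the diets (edgeR adjusted p = 0.843), while Rorb was under the filter there and differed by 0.26 ± 1.26 after transfer (edgeR adjusted p = 0.991).

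**Figure D4:**
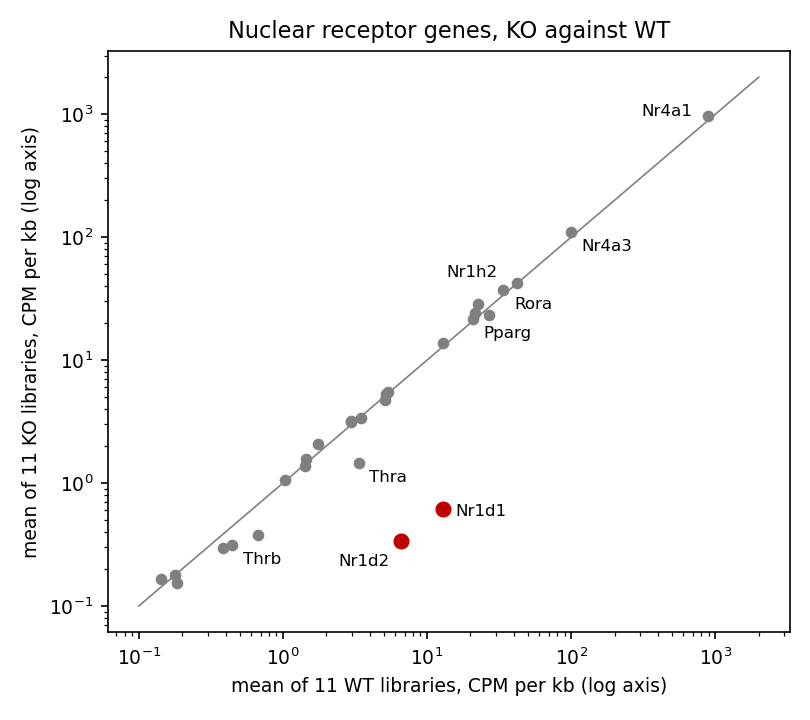
Mean level of nuclear receptor genes in the 11 KO libraries against the 11 WT libraries, in CPM per kilobase of exon on log axes, for genes above 0.1 in both; the line marks equal levels and red points are Nr1d1 and Nr1d2. The pair, at 12.9 and 6.6 in WT and 0.61 and 0.338 in KO cells, lies far below the line along which the other receptors fall, with Thra between.

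The clock genes that REV-ERBs are known to repress were read beside the members. Of the 5 in the list, 2 were higher in KO cells over the 3 diets, and the other 3 did not pass, with a median log2 difference of 0.26 beside 0 over all genes, of which 0.0855% were called higher. Npas2, the partner of BMAL1 that can replace CLOCK, was at 8.72, 0 and 6.07 CPM in lean WT and at 51.7, 54.4 and 54.5 CPM in lean KO libraries. It rose by 2.93 ± 0.29 over the diets (7.6-fold, edgeR adjusted p = 5.5e-06) and by 3.31 ± 0.47 after transfer (edgeR adjusted p = 0.0327, but 0.0735 without KO library 2). Cry1, a repressor of BMAL1-CLOCK, was at 79.4, 69.8 and 63.0 CPM in lean WT and at 190.2, 153.9 and 185.5 CPM in lean KO libraries. It rose by 1.25 ± 0.08 over the diets (2.39-fold, edgeR adjusted p = 8.93e-09) and by 1.37 ± 0.14 after transfer (edgeR adjusted p = 0.00462). Arntl (0.22 ± 0.10), Clock (0.26 ± 0.16) and Nfil3 (0.11 ± 0.15), which encodes a repressor acting at D-boxes, did not pass over the diets (edgeR adjusted p from 0.652 to 0.93). After transfer the same 2 of 5 genes were higher, with a median of 0.57 and 0.0854% of all genes called higher. After 16 weeks of HFD taken alone, Npas2 differed by 2.04 and did not pass (edgeR adjusted p = 0.201), while it did pass with DESeq2 (adjusted p = 0.00572).

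Beside the members, 11 genes driven by BMAL1-CLOCK were listed and 10 passed the filter. Over the diets 1 was lower and 1 higher, where 0.094% of all genes were called lower and 0.0855% higher, and the median was -0.05. Per3, a member of the period family of clock repressors, was at 12.8, 22.01 and 19.6 CPM in lean WT and at 3.30, 3.63 and 5.85 CPM in lean KO libraries. It fell by 2.66 ± 0.25 over the diets (6.34-fold, edgeR adjusted p = 2.4e-06), and by 2.98 ± 0.41 after transfer (edgeR adjusted p = 0.0267). Diet by diet Per3 differed by -2.08 ± 0.41 on the lean diet and -1.63 ± 0.39 after 4 weeks of HFD, which did not pass (edgeR adjusted p = 0.0866 and 0.473), and fell by 4.28 ± 0.47 after 16 weeks (edgeR adjusted p = 9.4e-05), beside 4.05 for Nr1d1 and 4.00 for Nr1d2. The lean difference passed in 4 of 24 alternatives, among them DESeq2 (adjusted p = 0.00277). A KO effect that differs between diets was not called for Per3. Its interactions were 0.46 ± 0.57 for 4 weeks and -2.20 ± 0.64 for 16 weeks of HFD against the lean diet (edgeR adjusted p = 0.9997 and 0.314). After 16 weeks of HFD, Per3 held only 1 to 4 counts per KO library. Its call after transfer was lost on leaving out either WT library (adjusted p = 0.216 and 0.0566) or the second KO library (0.0985). The gene that rose was Cry1, which is in both clock lists. The other 8 did not pass, among them Ciart (-0.92 ± 0.24), Dbp (-0.40 ± 0.20), Per1 (-0.24 ± 0.11), Per2 (0.03 ± 0.52), Cry2 (0.60 ± 0.14) and Hlf (0.97 ± 0.31), with edgeR adjusted p from 0.128 to 0.998. DESeq2 also called Cry2 higher, over the diets and after transfer. After transfer the count was again 1 lower and 1 higher of 10, with 0.0854% of all genes called in each direction and a median of -0.09. Of the 10, 6 had an unadjusted edgeR p under 0.05 over the diets and 6 after transfer, with differences in both directions. Of all genes, 865 of 11698 over the diets and 765 of 11715 after transfer had such a p.

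**Figure D5:**
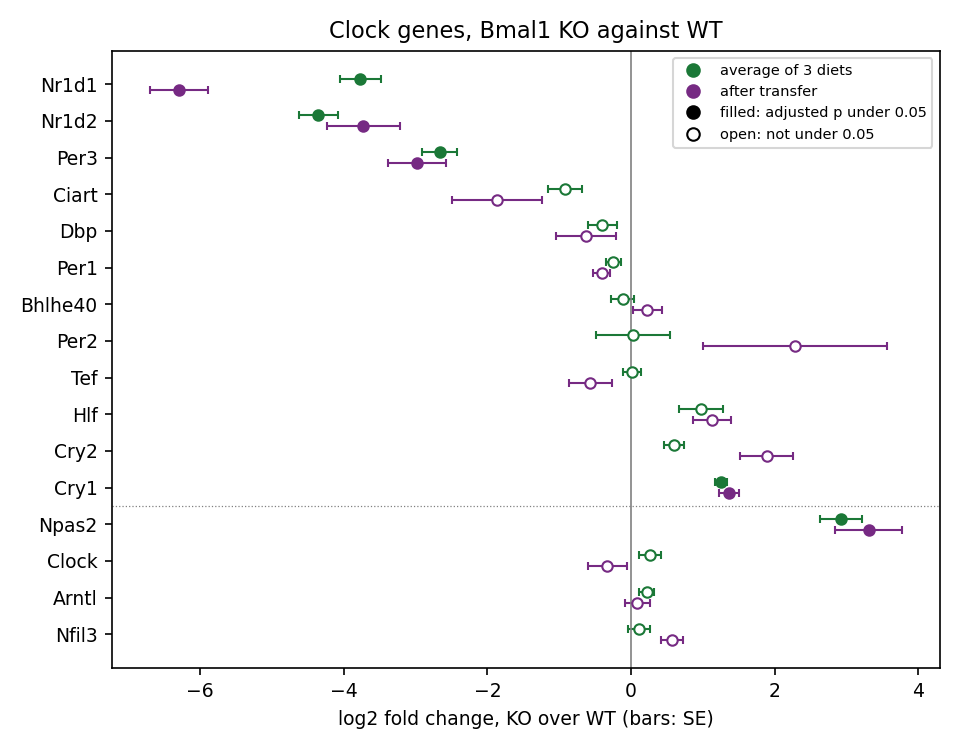
Log2 fold change of KO over WT with its SE for the REV-ERB genes and other clock genes, averaged over 3 diets (green) and after transfer (purple); filled points have an edgeR adjusted p under 0.05, and genes below the dotted line are in the list of REV-ERB repressed genes only. Nr1d1 and Nr1d2 are farthest to the left at -3.77 and -4.35 over the diets, and Npas2 is farthest to the right at 2.93.

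Outside the clock, 16 genes reported as repressed by REV-ERBs in other cells were listed, and only 6 passed the filter on low counts in the diet libraries. EdgeR called 0 of the 6 over the diets, where 0.18% of all genes were called, with 2 at an unadjusted p under 0.05 and a median of 0.09, and DESeq2 called 1, Cdkn1a. Mmp9, a matrix protease, differed by 0.76 ± 0.20 and Cdkn1a, encoding the cell cycle inhibitor p21, by 0.47 ± 0.11 (edgeR adjusted p = 0.255 and 0.151). After transfer 0 of 7 were called by either tool, where edgeR called 0.171% of all genes, with 2 at an unadjusted p under 0.05 and a median of -0.18. For this list and those below, 865 of all 11698 genes over the diets and 765 of 11715 after transfer had an unadjusted edgeR p under 0.05. DESeq2 called 38 and 61 of all genes. In the corepressor list, 1 of 6 was lower over the diets, where 0.094% of all genes were called lower: Gps2, a subunit of the NCOR complex, with a log2 difference of -0.38 ± 0.08 (edgeR adjusted p = 0.0401), a call that was lost in 17 of 23 alternatives, with an adjusted p of up to 0.175. Ncor1 (0.16 ± 0.06), Hdac3 (0.01 ± 0.08), Tbl1x (0.00 ± 0.10) and Tbl1xr1 (0.08 ± 0.10) did not pass, and after transfer 0 of 6 did by edgeR, by DESeq2 or at an unadjusted p under 0.05. For the lists that follow, 0.18% of all genes were called over the diets and 0.171% after transfer. Of 6 genes for REV-ERB protein turnover, 0 were called over the diets or after transfer by edgeR or DESeq2, and 1, Cdk1, had an unadjusted p under 0.05: Fbxw7 (-0.14 ± 0.20), Huwe1 (0.10 ± 0.06), Mycbp2 (0.02 ± 0.09), Siah2 (0.30 ± 0.33), Gsk3b (0.03 ± 0.08) and Cdk1 (0.71 ± 0.25) over the diets. Of 10 genes of heme synthesis and breakdown, which set the REV-ERB ligand, 0 were called in either by either tool and 0 had an unadjusted p under 0.05, with medians of 0.05 and -0.12.

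Genes with the pattern most like that of the members were ranked by Pearson's r of log2 CPM, as a description over libraries that share genotype, transfer and depth. Over all 22 libraries the nearest to Nr1d1 were Per3 (r = 0.89), Thra (0.82), Ciart (0.80), Gvin1 (0.76) and Lrrc42 (0.76). The nearest to Nr1d2 were Trim34a (0.83), Per3 (0.82), Gvin1 (0.81), Ciart (0.77) and Trim30d (0.77). Most opposite to Nr1d1 were Cry1 (-0.82), Cry2 (-0.79), Stard8 (-0.77), Trim68 (-0.77) and Trim21 (-0.76), and most opposite to Nr1d2 were Cry1 (-0.88), Npas2 (-0.79), Trim68 (-0.78), Trim21 (-0.75) and Stard8 (-0.74). Of these, Gvin1, Trim34a, Trim30d, Trim68 and Trim21 lie on chromosome 7, between 7.0 and 10.6 Mb from Arntl. Gvin1, Trim34a and Trim30d belong to families with near-identical copies, and their counts are uncertain.

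Among the 11 WT libraries alone the genes resembled different ones. This ranking includes the 2 transferred WT libraries, which held the highest Nr1d1 levels and came from another experiment. With them, Pearson's r between Nr1d1 and Nr1d2 was 0.001. Over the 9 WT diet libraries it was 0.61, before the diet means were removed. Nr1d1 was most like Zfp36 (r = 0.97), which encodes the mRNA-destabilising protein tristetraprolin, Ndrg1 (0.96), Nsdhl (0.95), Gadd45b (0.95) and Il2ra (0.95), the interleukin 2 receptor alpha chain. Near to Nr1d2 were Elf4 (0.93), Tube1 (0.92), Tuba1b (0.92) and Haus4 (0.90), none of them among the genes named for Nr1d1. In WT cells Zfp36 averaged 1059 ± 404 CPM in lean and 2939 ± 712 CPM in transferred cells, and in KO cells 1841 ± 143 and 3356 ± 287 CPM (SD, n = 3 and 2). Zfp36 was thus abundant in KO cells as well, where Nr1d1 stayed at 2.11 ± 1.98 CPM in lean and 1.16 ± 0.548 CPM in transferred cells.

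By group mean, Nr1d1 fell in the order transferred WT, lean WT, 4 weeks HFD WT and 16 weeks HFD WT, at 90.3, 36.2, 27.1 and 22.1 CPM, then 4 weeks HFD KO, lean KO, 16 weeks HFD KO and transferred KO, at 2.71, 2.11, 1.29 and 1.16 CPM. Libraries of neighbouring groups overlapped except between transferred and lean WT and between WT and KO. For Nr1d2 the order was lean WT, 16 weeks HFD WT, 4 weeks HFD WT and transferred WT, at 47.3, 32.9, 31.4 and 29.1 CPM, then transferred KO, 16 weeks HFD KO, 4 weeks HFD KO and lean KO, at 2.22, 2.03, 1.82 and 1.37 CPM. Its neighbours overlapped except at lean WT, whose distance from the next group did not pass the test, and between WT and KO.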

How the data were processed

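Polyadenylated RNA of sorted Foxp3-YFP+ cells was amplified as cDNA and tagmented into 22 libraries, per the labels' protocols. Alignment used STAR 2.7.3a and the mm10 build, and counting used featureCounts, per the submitters' processing notes. Neither its annotation nor its use of strand is given in these sources. The deposited table holds whole-number counts per gene symbol, with no scaling by the authors seen. The tools named are STAR and featureCounts only, with none for removing PCR copies, so such copies may be counted as separate reads.

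Groups came from the labels. After TMM scaling, the whole table was tested by quasi-likelihood F tests (edgeR 4.0.16, R 4.3.3), with Benjamini-Hochberg adjustment over all genes tested and a threshold of 0.05. The 18 diet libraries were fitted together, the 4 transfer libraries alone, and transfer against lean diet in all 22. The edgeR filter (minimum count 10) left 11698, 11715 and 12523 genes, with both REV-ERB genes in each. The biological coefficient of variation was 29.0% for Nr1d1 and 20.9% for Nr1d2 in the diet libraries, against a median of 20.4%. SE is the size of the log2 fold change divided by the square root of F. It is unstable for differences near 0, so the intervals built from it are approximate there. CPM uses TMM over 22 libraries, and fold changes come from the fits. Ratios used counts plus 0.5. Likeness used log2 CPM with a prior count of 2, over 11040 genes. Coordinates and exon lengths are from GENCODE M21, which held 96.2% of the symbols, and promoter windows from RefSeq. The scripts were tested on simulated counts.

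The members and lists were chosen with earlier results of these data known. Named besides the members were overlapping and neighbouring genes, list members past the threshold (up to 6 by smallest p), all members of lists of 6 or fewer, the 5 highest nuclear receptors per kb, and the 5 genes most and least like each member. Hence Ciart, Dbp, Per1, Per2, Cry2, Hlf, Mmp9 and Cdkn1a, and the levels of marker genes, were chosen after their values were seen. A few genes under this rule are not reported. Alternatives were RLE scaling, no filter, DESeq2 1.42.0, other sets of libraries in the fit, a replicate block and leaving out each library.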

Additional observations from a re-analysis of the deposited data

How the results depend on the processing

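The lower level of Nr1d1 and Nr1d2 in KO cells kept its direction and its side of the threshold in 205 of 208 alternatives. The other 3 are the fits of Nr1d2 after transfer without a library, with log2 fold changes between -4.42 and -3.23 over all 4 such fits. Replicate numbers did not pair the libraries, since deviations of same-numbered WT and KO libraries correlated at -0.02 to 0.09. With a replicate block, the change of Nr1d1 between transferred and lean WT cells was 1.12 (edgeR adjusted p = 0.0741) and its interaction of genotype with 16 weeks of HFD was 0.10, and no other call on the pair changed. Without single libraries the former ran from 0.96 to 1.52 and the latter from -0.62 to 1.10. Fitting only the groups compared gave Nr1d2 a change of -0.76 between transferred and lean WT cells with an edgeR adjusted p of 0.0499.

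Signs that turned without single libraries belong to differences that were never called. In KO cells against lean diet, Nr1d1 gave -1.34 to 0.38 after 16 weeks of HFD, -0.19 to 1.45 after 4 weeks and -1.55 to 0.17 after transfer. Nr1d2 gave -0.09 to 1.38, -0.21 to 1.26 and -0.13 to 1.47 in that order. Between 16 and 4 weeks of HFD, Nr1d2 gave -0.26 to 0.57 in KO and -0.10 to 0.21 in WT cells. The log2 ratio of Nr1d1 to Nr1d2 ran from -0.39 to 0.08 for 16 weeks of HFD against lean diet in WT cells. Its difference for KO against WT over the diets kept its sign, from 0.46 to 0.92. For Gps2 after transfer the range was -0.18 to 0.24. The causes were not tested. The number of genes called between KO and WT moved more than the pair did. Without the filter, the 5 genes on the lean diet became 135, the 8 after 4 weeks of HFD 75, the 5 after 16 weeks 428, the 21 over the diets 273 and the 20 after transfer 102. DESeq2 called 24 on the lean diet, 47 after 16 weeks, 38 over the diets and 61 after transfer. Fitting only the groups compared gave 10 on the lean diet and 50 after 16 weeks, the replicate block gave 10, 5 and 8 on the 3 diets and 40 after transfer, and the fit of 22 libraries gave 37 after transfer. Without single libraries the counts were 4 to 11, 4 to 8, 4 to 35, 16 to 29 and 15 to 21; the highest of the first came without lean WT library 1 and the 35 without library 1 of the WT group after 16 weeks of HFD. KO cells hold at most 14 counts of either gene per library, which limits every comparison among them.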
